A study of Mus musculus with 6 samples.

Results

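The nuclear genes of oxidative phosphorylation were followed in mouse embryonic stem (ES) cells with and without induction of the human transcription factor GTF2I. The genes were those whose symbol begins with Nduf, Uqcr, Atp5 or Cox4 to Cox8, together with Sdha, Sdhb, Sdhc and Sdhd, on probe sets that carry a single gene symbol. This rule gave 90 of the 18193 genes on the arrays, covered by 179 of 45037 probe sets, and each gene was represented by its brightest probe set. The 90 genes comprised 6 core and 28 accessory subunits of complex I, 8 assembly factors of complex I (Ndufaf1 to Ndufaf8), 4 genes of complex II, 8 of complex III, 19 of complex IV and 17 of complex V. Ndufa4 and Cox7a2l were counted with complex IV, and 8 of the 19 genes of that complex were forms known mainly from particular tissues.

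Induced cells had been kept without tetracycline for 24 h, and uninduced cells were grown with tetracycline (0 h). Both came from clones A1, B3 and C6 of the EB3 (EBRTcH3) line, in which the human GTF2I open reading frame with a 3xFLAG tag stood at the Rosa26 locus under a Tet-off promoter, and all cells carried the transgene and had passed puromycin selection. Each clone gave 1 array per state, so that 3 induced arrays stood against 3 uninduced arrays, all from cells in ES medium with LIF. The transgene is called GTF2I here after the sample titles, since another label field gives GTF2IRD2. Because each clone was hybridised once per state, the spread among arrays holds the differences among clones and those of RNA preparation and hybridisation together. The states also differed in tetracycline and in time, and no cells without the transgene were on these arrays. Induction of GTF2I therefore cannot be told apart from removal of tetracycline.

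The respiratory chain of the inner mitochondrial membrane passes electrons from NADH (complex I) and succinate (complex II) through complex III to complex IV, which reduces oxygen, and complex V uses the proton gradient built by complexes I, III and IV to make ATP. A few subunits are encoded in mitochondrial DNA, whereas the genes examined here lie in the nucleus and their products are imported. Mouse ES cells in the presence of LIF use both glycolysis and respiration. Promoters of these nuclear genes are known for binding sites of NRF1, of the ETS factor GABP and of YY1.

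Promoter sequence is shown for 9 genes that the results below turn on, namely those with a motif upstream of the start that had an unadjusted p under 0.05 in the comparisons among clones, and Ndufb6, which had the smallest p for induction. A window of 250 bases before to 50 bases after an annotated start was taken from RefSeq (GRCm38.p6) and matched 74 of the 90 genes in 79 windows. Both strands were searched for GCGCA followed by any base and GCGC (NRF1), CCGGAAG (ETS, the motif of GABP) and AAGATGG (YY1), which do not overlap one another in these stretches. Each stretch below is 50 bases, 5′ to 3′ on the gene's strand, and the motif is in capitals.
Ndufaf4, NRF1: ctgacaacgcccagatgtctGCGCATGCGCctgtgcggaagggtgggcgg
Ndufa8, NRF1: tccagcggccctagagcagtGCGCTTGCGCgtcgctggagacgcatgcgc
Atp5c1, NRF1: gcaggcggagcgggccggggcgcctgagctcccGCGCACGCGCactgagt
Atp5g2, NRF1: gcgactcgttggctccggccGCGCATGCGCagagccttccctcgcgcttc
Ndufb7, ETS: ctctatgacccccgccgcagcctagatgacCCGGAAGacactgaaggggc
Ndufs3, ETS: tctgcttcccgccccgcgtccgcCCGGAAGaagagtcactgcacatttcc
Ndufaf1, ETS: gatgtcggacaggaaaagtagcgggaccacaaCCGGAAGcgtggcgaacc
Ndufb6, ETS: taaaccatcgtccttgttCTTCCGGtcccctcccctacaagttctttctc
Atp5e, ETS: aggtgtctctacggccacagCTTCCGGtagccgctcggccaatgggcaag

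Each stretch lies upstream of an annotated start, which for Atp5c1 and Ndufaf1 is not the outermost end of the gene. The Atp5c1 stretch lies inside the bounds of its gene, and the Ndufaf1 stretch overlaps them. The motif began upstream of the start by the number of bases given here with the position of each stretch: Ndufaf4 at chr4:24897950-24897999 (plus strand, 113 bases), Ndufa8 at chr2:36049339-36049388 (minus strand, 30 bases), Atp5c1 at chr2:10080433-10080482 (minus strand, 17 bases), Atp5g2 at chr15:102671060-102671109 (minus strand, 42 bases), Ndufb7 at chr8:83566708-83566757 (plus strand, 20 bases), Ndufs3 at chr2:90904722-90904771 (minus strand, 27 bases), Ndufaf1 at chr2:119662835-119662884 (minus strand, 18 bases), Ndufb6 at chr4:40279622-40279671 (minus strand, 232 bases) and Atp5e at chr2:174464174-174464223 (minus strand, 102 bases).

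The NRF1 letters occurred in 22.8% of the windows of these genes, against 4.60% of all 32851 windows and 15.1% of the 1948 windows of bright genes, those with a mean value of 10 or more. The ETS letters occurred in 24.1%, against 8.86% of all windows and 23.7% of those of bright genes, and the YY1 letters in 13.9%, against 6.34% and 9.39%. At least 1 of the motifs was present for 41 of the 74 genes. By role, an NRF1 match was found for 6 of 15 complex V genes, 5 of 26 accessory subunits of complex I and 0 of 5 core subunits. A match is a description of the letters in the window and not a measured binding site.

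The values were log2 RMA summaries, in which a difference of 1 is a change by a factor of 2. Of the 90 genes, 70 had a mean of at least 10 over the 6 arrays and 4 lay under 6, where the median of all probe sets of an array was between 5.06 and 5.11. ES cell markers were high, with means of 10.9 to 14.2 for all 8 genes of the list, among them Pou5f1 and Nanog, whereas the 10 fibroblast and feeder markers had means of 2.58 to 6.69. Esrrb, a marker of this list, was higher in induced than in uninduced A1 cells by 0.51 but differed by −0.36 in B3 and −0.65 in C6, an A1 contrast of 1.02 (adjusted p = 0.0347 by limma), and its part in the results was not tested. The brightest probe set of mouse Gtf2i read 10.46, 10.79 and 10.80 in induced and 10.31, 10.69 and 11.02 in uninduced clones A1, B3 and C6, and it is not a check of the human open reading frame. Clone A1 stood apart from the other clones: among the brighter genes (a mean of 10 or more over the arrays), 67.7% had a difference between induced and uninduced A1 cells of opposite sign to those of both B3 and C6. The state of each A1 array was taken from its label, no value used here checks it, and an exchange of the 2 A1 arrays would turn the sign of every A1 difference given here and alter each difference over the 3 clones; it was not tested. The results are therefore also given without clone A1 and clone by clone. The 3′ minus 5′ signal of actin, a sign of RNA integrity, was 0.40, 0.58 and 0.47 in induced A1, B3 and C6 cells. It was 0.38, 0.35 and 0.43 in uninduced cells, with the largest gap in clone B3. That of Gapdh was 0.14, 0.14 and 0.06 in induced and 0.07, 0.12 and 0.15 in uninduced cells, with the smallest gap in B3. The part of RNA integrity in the results was not tested.

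No gene of oxidative phosphorylation passed the test of induced against uninduced cells. Of the 90 genes 0 had an adjusted p under 0.05 (limma, moderated test with Benjamini-Hochberg adjustment over 45037 probe sets), and the background was also 0.0%, with 0 probe sets called. In such bulk RNA a smaller share of expressing cells and less RNA per cell cannot be told apart. At an unadjusted p under 0.05 limma named 0 of the 90 genes and 96 of all genes (0.528%), and the methods' t-test with Benjamini-Hochberg adjustment called 0 genes of the set. The differences were positive for 55 genes (61.1%, beside 49.2% of all genes) and negative for 35, with a median of 0.02, against −0.00 over all genes, and they ran from −0.14 (Cox6b2) to 0.17 (Ndufb6). The 95% intervals reached 0.26 to either side of the estimate at the median and 0.58 at most, and no interval extended below −0.61 or above 0.64. In a fit of B3 and C6 alone, blocked by clone, 0 of the 90 genes passed, beside 1.81% of all genes (329), and the median difference was 0.04.

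**Figure D1:**
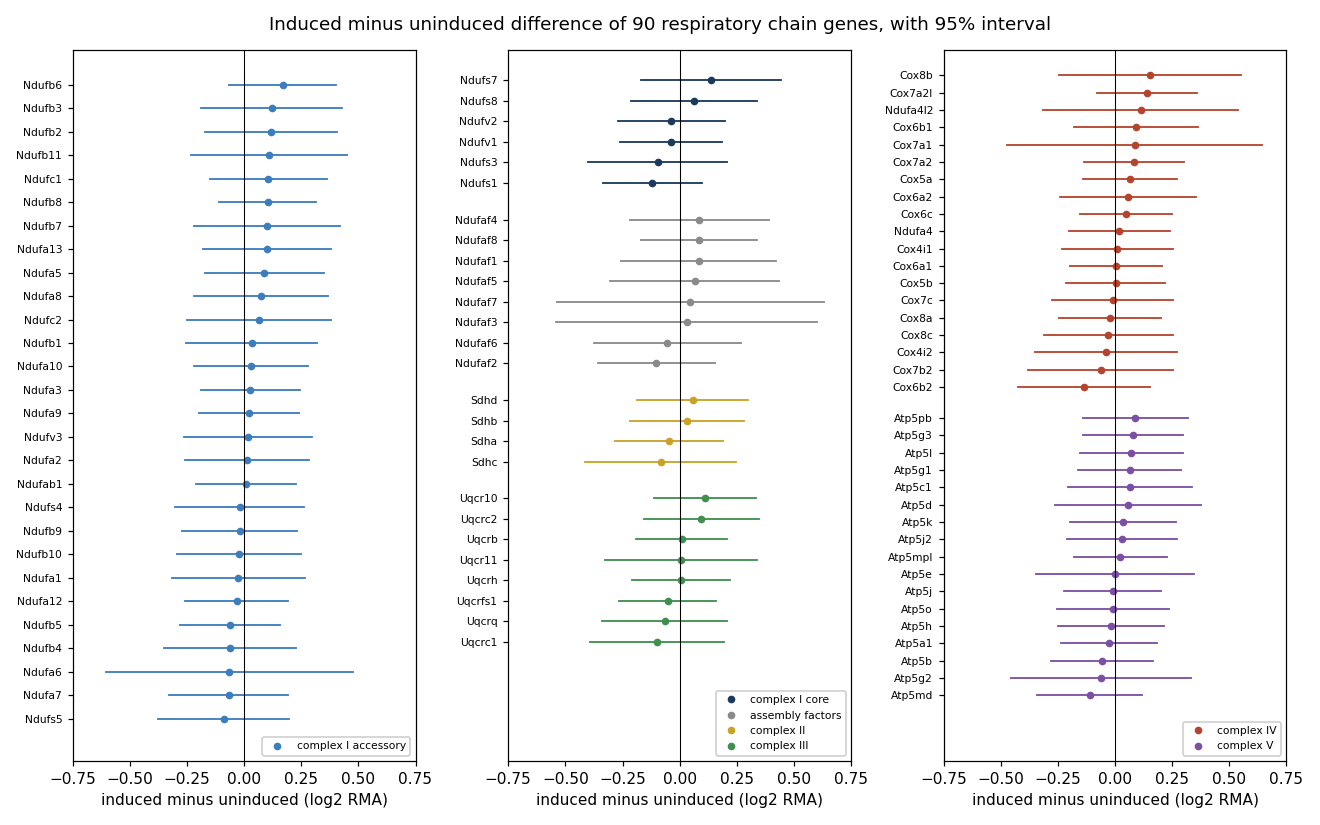
Induced minus uninduced difference (log2 RMA, horizontal axis) of each of the 90 genes, grouped by complex; points are limma estimates from 3 induced and 3 uninduced arrays and lines their 95% intervals. Every interval crosses 0, and the estimates lie between −0.14 and 0.17.

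Large differences within a clone were absent on the brightest probe sets, but the typical difference was not small in every clone. For the 70 brighter genes of the set the median absolute difference was 0.079, 0.122 and 0.129 in A1, B3 and C6. For all 1888 brighter genes it was 0.107, 0.116 and 0.141, so the set was lower in A1 and C6 and slightly higher in B3. No gene of the set differed by 0.5 or more between the induced and uninduced cells of any clone, whereas 1389 of 18193 genes did (7.63%), and so did 116 of the 1888 brighter genes (6.14%). The largest single difference on these probe sets was 0.47, for Ndufa4l2 in clone B3. Dimmer probe sets went further for Ndufab1 (−0.72 in A1 and 1.01 in C6) and Cox8c (0.53 in B3). The median standard deviation over the 6 arrays was 0.0993 for the 70 brighter genes of the set and 0.125 for all 1888 brighter genes. These groups were not matched for brightness, with median levels of 11.6 and 10.9, and the part of brightness in the spread was not tested.

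Ndufs1 encodes the large iron-sulphur subunit at the electron entry side of complex I. It read 10.90, 10.84 and 10.73 in induced A1, B3 and C6 cells, against 10.91, 10.98 and 10.93 in uninduced cells. All 3 induced arrays lay below all 3 uninduced arrays, although for A1 the gap was only −0.01, while it was −0.14 for B3 and −0.20 for C6. The difference of −0.12 ± 0.09 (SE, n = 3 per state, adjusted p = 1.00 by limma) did not pass the test. Ndufs1 was the only gene of the set with this separation, which 1.76% of all genes showed. Among the other core subunits Ndufs7, which takes part in electron transfer towards ubiquinone, had the largest positive difference of 0.14 ± 0.13. Its 3 induced values were 10.71, 11.11 and 11.03 in A1, B3 and C6, and its uninduced values 10.94, 10.68 and 10.81, so that A1 ran the other way and the groups overlapped. A second probe set of Ndufs7, with a mean of 10.6, had the opposite sign in every clone and differed by −0.02. The core subunits had a median difference of −0.04, with 2 of 6 positive.

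The accessory subunits, which surround the core of complex I, had a median difference of 0.03 with 18 of 28 positive. Ndufb6, a subunit of the membrane arm, had the smallest unadjusted p of all 90 genes, 0.136. It read 11.62, 11.76 and 11.77 in induced A1, B3 and C6, against 11.59, 11.43 and 11.62 in uninduced cells, a difference of 0.17 ± 0.10. The sign was the same in all 3 clones, but induced A1 and uninduced C6 both read 11.62. A second probe set of Ndufb6 of similar brightness differed by only −0.01, so the probe sets of this gene disagreed. Ndufb8, also of the membrane arm, read 11.44, 11.52 and 11.42 in induced and 11.43, 11.32 and 11.33 in uninduced A1, B3 and C6. Its induced and uninduced values overlapped, with a difference of 0.10 ± 0.09. Ndufs5 had the most negative difference of the accessory subunits, −0.09 ± 0.12, from 9.71, 9.32 and 9.40 in induced and 9.54, 9.52 and 9.64 in uninduced clones. A1 was the highest of the 3 induced arrays, and B3 and C6 the lowest of all 6.

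The assembly factors of complex I build the enzyme and are not part of it. Their median difference was 0.06, with 6 of 8 positive. Ndufaf2 was the exception that was lower in all 3 clones, with 8.35, 8.08 and 8.35 in induced and 8.38, 8.28 and 8.42 in uninduced A1, B3 and C6. The groups overlapped and the difference was −0.10 ± 0.11. Ndufaf8 differed by 0.09 ± 0.11, and its clone differences were −0.04, 0.24 and 0.05, while a second, dimmer probe set differed by −0.08. Ndufaf4 differed by 0.09 ± 0.13 and is described with the clones below.

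Complex II, succinate dehydrogenase, consists of the catalytic subunits Sdha and Sdhb and the membrane anchors Sdhc and Sdhd, and its genes had a median difference of −0.01. Sdhc read 10.88, 10.64 and 10.33 in induced and 10.74, 10.67 and 10.69 in uninduced A1, B3 and C6. Induced C6 was the lowest of the 6 arrays and induced A1 the highest, and the difference was −0.08 ± 0.14. Sdhd differed by 0.06 ± 0.11, from 10.92, 10.86 and 10.89 in induced and 10.98, 10.85 and 10.68 in uninduced clones.

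Complex III carries electrons from ubiquinol to cytochrome c, and 5 of its 8 genes had a positive difference, with a median of 0.01. Uqcr10, a small subunit, was higher in every clone, with 11.43, 11.61 and 11.54 in induced and 11.35, 11.47 and 11.42 in uninduced A1, B3 and C6. The induced A1 value lay below the uninduced B3 value, and the difference was 0.11 ± 0.10. The core proteins Uqcrc1 and Uqcrc2 had differences of opposite sign, −0.10 ± 0.13 and 0.10 ± 0.11. Uqcrb, another small subunit, held between 13.56 and 13.64 on all 6 arrays.

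Complex IV, cytochrome c oxidase, had a median difference of 0.02 with 13 of 19 genes positive. Cox7a2l, known for its part in joining complexes III and IV into supercomplexes, read 10.92, 11.11 and 11.03 in induced A1, B3 and C6, against 10.91, 10.83 and 10.90 in uninduced cells. All 3 induced arrays were above all 3 uninduced arrays, the only such case in the set, beside 1.5% of all genes. The difference was 0.14 ± 0.09 (SE, n = 3 per state, adjusted p = 1.00 by limma), which came from 0.02 in A1, 0.28 in B3 and 0.13 in C6, all positive. The other probe sets of Cox7a2l, also with means above 10, differed by 0.05 and 0.03.

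Several subunits of complex IV exist as a general form and as a form known from particular tissues, and both kinds were followed. The general forms Cox4i1, Cox6a1, Cox6b1, Cox7a2, Cox8a and Ndufa4 had differences between −0.02 and 0.09. Cox6a1 varied little, with 13.47, 13.50 and 13.50 in induced and 13.46, 13.47 and 13.54 in uninduced A1, B3 and C6. Of the forms known from particular tissues, Cox6b2, known from testis, read 9.20, 8.77 and 9.02 in induced and 9.19, 9.08 and 9.12 in uninduced clones. Its difference was −0.14 ± 0.13, the most negative of the set, and B3 and C6 were lower when induced while A1 differed by 0.01. Cox8b, known from heart and muscle, read 5.02, 5.40 and 4.76 in induced and 4.74, 5.07 and 4.92 in uninduced clones, with a difference of 0.15 ± 0.17. The groups overlapped, and all 6 values were below 6. The other forms of this kind had differences of −0.04 (Cox4i2), 0.06 (Cox6a2), 0.08 (Cox7a1), −0.06 (Cox7b2), −0.03 (Cox8c) and 0.11 (Ndufa4l2), and no interval excluded 0. The muscle markers Ckm, Myh6, Actc1 and Mb had means of 4.39 to 5.93.

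In complex V, the ATP synthase, 9 of 17 genes had a positive difference and the median was 0.02. Atp5md, a small membrane subunit, read 10.35, 10.29 and 10.35 in induced and 10.33, 10.45 and 10.56 in uninduced A1, B3 and C6. It was lower in induced B3 and C6 and not in A1, and the difference was −0.11 ± 0.10. Atp5pb, a subunit of the peripheral stalk, read 12.50, 12.69 and 12.52 in induced and 12.45, 12.56 and 12.43 in uninduced clones. It was higher in all 3 clones, with overlapping groups and a difference of 0.09 ± 0.10, but a second bright probe set differed by −0.10, with 0.18, −0.32 and −0.15 in A1, B3 and C6. The 3 genes for subunit c of the rotor, Atp5g1, Atp5g2 and Atp5g3, which encode the same mature protein, differed by 0.06 ± 0.10, −0.06 ± 0.17 and 0.08 ± 0.10.

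Counting signs over the clones, 10 of the 90 genes were higher in induced cells of all 3 clones, beside 8.29% of all genes, and 3 were lower in all 3, beside 8.37%. The 10 genes were Ndufb2, Ndufb6, Ndufb8, Ndufc1, Uqcr10, Cox6c, Cox7a2l, Atp5j2, Atp5mpl and Atp5pb, and the 3 genes were Ndufs1, Ndufa12 and Ndufaf2. All 10 of the genes that were higher had a mean of at least 10, where 14.3% of the 70 brighter genes of the set and 4.45% of all brighter genes were higher in every clone. None of the 13 genes passed the test. The sign counts also rest on the brightest probe set. A further probe set with a mean of at least 6 had a negative difference in some clone for Ndufb2, Ndufb6, Ndufc1, Uqcr10, Cox6c, Cox7a2l, Atp5j2 and Atp5pb. For Ndufb8 a dimmer one, with a mean of 5.28, differed by −0.30, −0.16 and 0.16 in A1, B3 and C6. For Ndufa12, further bright probe sets had positive differences in B3 and C6.

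In clone A1 the difference had the opposite sign to both B3 and C6 for 55 of the 90 genes (61.1%), 25 of them positive in A1 and 30 negative. The background was 45.5% of all genes, and for the brighter genes the share was 64.3% in the set and 67.7% overall. Clone B3 stood against both others for 11 genes and clone C6 for 11, beside 18.0% and 18.9% of all genes. Among all brighter genes these shares were 10.5% and 12.3%. By role, A1 was opposite for 7 of 8 complex III genes, 6 of 8 assembly factors, 11 of 17 complex V genes, 17 of 28 accessory subunits and 8 of 19 complex IV genes. Across the 90 genes, which are not independent replicates and share the 6 arrays, the differences of A1 correlated at r = −0.49 with those of B3 and −0.75 with those of C6, and those of B3 and C6 at 0.43. The same values were −0.46, −0.55 and 0.49 over all genes, and for the brighter genes they were −0.74, −0.72 and 0.69 in the set and −0.80, −0.85 and 0.77 overall.

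**Figure D2:**
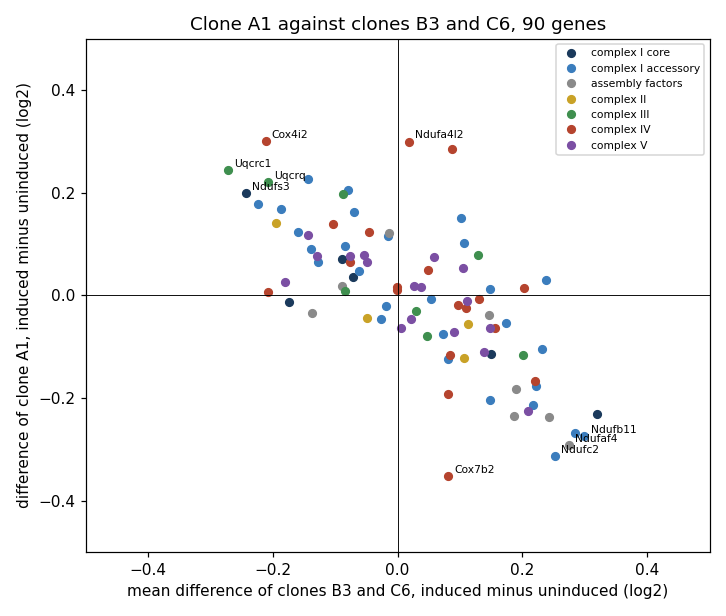
Each point is 1 of the 90 genes, coloured by complex, with its induced minus uninduced difference in clone A1 (vertical axis, log2) against the mean difference of clones B3 and C6 (horizontal axis, log2). Most points fall at the upper left, such as Uqcrc1 (0.24 in A1), and at the lower right, such as Ndufc2 (−0.31 in A1).

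The test of the A1 difference against those of B3 and C6 called 0 of the 90 genes, beside 2.68% of all genes and 3.87% of the brighter genes (limma, Benjamini-Hochberg over all probe sets). In this test 1 clone stands against 2, and the spread of the lone clone is taken to be that of the others. At an unadjusted p under 0.05 it named 13 genes of the set, 4 higher and 9 lower in A1, which is 14.4% beside 18.0% of all genes and 21.9% of the brighter ones. An eBayes fit with a trend of variance on brightness called 9 of the 90, beside 7.95% of all genes: Ndufb11, Ndufc2, Ndufb7, Ndufs7, Ndufaf4, Atp5c1 and Cox6b1 with a lower difference in A1, and Uqcrc1 and Uqcrq with a higher one.

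Among these genes Ndufb11, Ndufc2 and Ndufb7 encode membrane arm subunits of complex I. They belong to the accessory subunits, which made up 28 of the 90 genes, and an excess of such subunits was not tested. For the fit with the trend, the share among the brighter genes alone is not given here. Ndufb11 read 11.60, 11.83 and 12.09 in induced A1, B3 and C6, against 11.88, 11.56 and 11.76 in uninduced cells. In A1 the induced array was lower by −0.27, while in B3 and C6 it was higher by 0.27 and 0.33, and the A1 difference minus that of the others was −0.57 ± 0.18 (SE, adjusted p = 0.145 by limma). Of 2 further probe sets of Ndufb11, one with a mean of 11.7 had differences of −0.18, 0.22 and 0.10 in A1, B3 and C6, with the signs of the brightest, and the other, with a mean of 11.5, had differences of 0.09, −0.14 and −0.29 in these clones, opposite in sign in each. Ndufc2 read 11.57, 11.94 and 12.02 in induced and 11.88, 11.71 and 11.74 in uninduced clones, and its 2 other bright probe sets had the same signs in every clone. The A1 contrast was −0.57 ± 0.18 for Ndufc2 and −0.55 ± 0.18 for Ndufb7, whose second probe set differed by less than 0.12 in every clone, with a negative sign in all 3.

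Ndufs3, a core subunit, ran the other way, with 11.0035, 10.62 and 10.77 in induced and 10.80, 10.82 and 11.06 in uninduced A1, B3 and C6. Uqcrc1 of complex III shared that pattern, with 12.22, 12.08 and 11.997 in induced and 11.98, 12.27 and 12.35 in uninduced clones. The A1 difference exceeded that of the other clones by 0.44 ± 0.18 for Ndufs3 and 0.52 ± 0.19 for Uqcrc1, with adjusted p = 0.262 and 0.198 by limma. Uqcrq, also of complex III, had differences of 0.22, −0.21 and −0.20 in A1, B3 and C6.

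Ndufaf4, an assembly factor whose promoter holds an NRF1 motif, read 9.80, 9.996 and 9.996 in induced and 10.09, 9.72 and 9.72 in uninduced A1, B3 and C6. B3 and C6 read alike in each state, and A1 lay on the other side in both. The A1 contrast was −0.57 ± 0.18 (SE, adjusted p = 0.148 by limma). Ndufaf1, which acts on an early membrane part of complex I, Ndufa8 and Atp5c1, the central stalk of ATP synthase, had contrasts of −0.48, −0.43 and −0.43. The ETS letters printed above stood both in Ndufs3, with a positive contrast, and in Ndufb7 and Ndufaf1, with negative ones. Genes with NRF1 letters also had both signs: negative for Ndufaf4, Ndufa8 and Atp5c1, and positive for Ndufs5 (0.40) and Atp5g2 (0.21). A link between motif and contrast was not tested.

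A dimmer probe set of Ndufab1, the mitochondrial acyl carrier protein of complex I, was the only one of the 179 probe sets past the threshold in the A1 contrast, beside 2.71% of all probe sets, and it was singled out after its values were seen. It read 7.14, 7.82 and 8.66 in induced and 7.86, 7.38 and 7.65 in uninduced A1, B3 and C6. The A1 contrast was −1.44 ± 0.24 (SE, adjusted p = 0.0207 by limma). The brightest probe set of Ndufab1, with a mean of 12.1, had differences of 0.16, −0.05 and −0.09 in A1, B3 and C6, opposite in sign in every clone, so the probe sets of this gene disagreed.

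**Figure D3:**
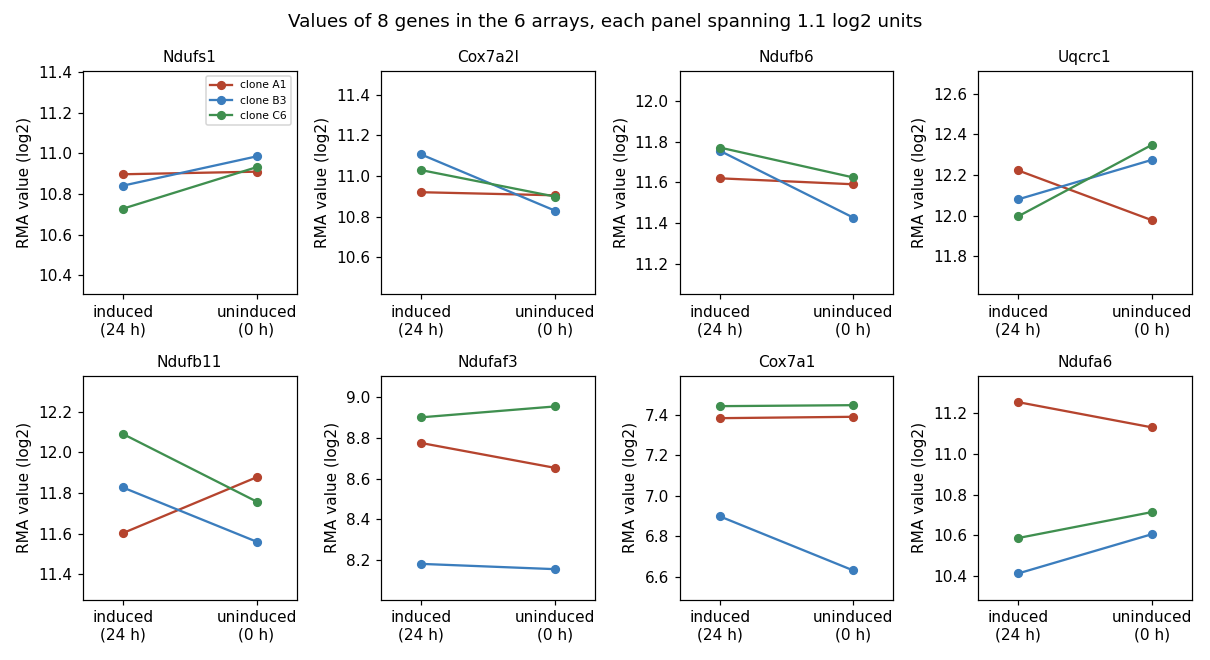
Log2 RMA values of 8 genes in induced (24 h, left) and uninduced (0 h, right) cells; lines join the arrays of a clone, and each panel spans 1.1 log2 units. Lines cross for Uqcrc1 and Ndufb11, where clone A1 runs against B3 and C6. A clone stays below the others in both states for Ndufaf3 and Cox7a1 (B3) and above them for Ndufa6 (A1).

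The level of a gene could also differ among clones in both states. No gene of the set passed the test for clones (limma, moderated F test with induction state in the model), beside 1.67% of all genes. At an unadjusted p under 0.05 it named 7 of the 90 genes (7.78%), beside 17.2% of all genes. Both arrays of A1 lay above all 4 others for 11 genes (12.2%) and below them for 14 (15.6%), beside 11.7% and 12.2% of all genes and 12.9% and 10.4% of the brighter genes. For B3 the counts were 5 of the 90 genes above (5.56%) and 9 below, beside 14.6% and 13.8% of all genes and 6.62% and 13.7% of the brighter genes. For C6 they were 12 above (13.3%) and 1 below (1.11%), beside 9.93% and 7.46% of all genes and 12.4% and 7.57% of the brighter genes.

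Ndufaf3, an assembly factor, came nearest to the threshold, with adjusted p = 0.0661. It read 8.18 and 8.15 in induced and uninduced B3 cells, against 8.77 and 8.65 in A1 and 8.90 and 8.95 in C6. B3 was thus the lowest clone in either state, and its arrays lay farther from those of the other clones than from each other. With 1 probe set per gene entered, which changes both the limma fit and the tests adjusted for, Ndufaf3 passed with adjusted p = 0.044. It was the only 1 of the 90 genes, beside 2.63% of all genes. Cox7a1, known from heart and muscle, was also low in B3, with 6.90 in induced and 6.63 in uninduced cells, against 7.38 and 7.39 in A1 and 7.44 and 7.45 in C6, and adjusted p = 0.0946.

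Ndufa6, an accessory subunit of complex I, was high in A1, with 11.26 in induced and 11.13 in uninduced cells, against 10.41 and 10.60 in B3 and 10.59 and 10.71 in C6 (adjusted p = 0.108). Ndufaf7, an assembly factor of complex I, was also highest in A1, with 8.19 and 8.42, against 7.59 and 7.54 in B3 and 7.95 and 7.63 in C6. Atp5g2 was high in A1, with 12.56 and 12.48 in induced and uninduced cells, against 11.99 and 12.11 in B3 and 12.09 and 12.23 in C6, while Atp5e, the epsilon subunit, was low in A1 with 10.70 and 10.74, against 11.03 to 11.11 in the other clones. A dimmer probe set of Atp5g2, with a mean of 5.68, was the only one of the 179 probe sets past the threshold among clones, beside 1.13% of all probe sets, and was singled out after its values were seen. It read 6.23 and 6.25 in induced and uninduced A1 cells, against 5.42 and 5.53 in B3 and 5.31 and 5.34 in C6 (adjusted p = 0.0312 by limma), with A1 high as for the brightest probe set. Ndufaf6 was the seventh gene, with B3 below the other clones. Of the 8 assembly factors, 3 (37.5%) were among these 7 genes, a count made after the values were seen. The assembly factors had means of 7.81 to 9.89. Among all genes averaging 6 or higher, 22.5% had an unadjusted p under 0.05 in the same F test. None of the 3 assembly factors passed that test after adjustment. Without the induced A1 array Ndufaf3, Cox7a1 and Ndufaf7 passed the test, beside 9.62% of all genes, and without the uninduced A1 array Ndufaf3, Cox7a1 and Ndufa6 did, beside 10.6%; in both cases the remaining A1 array is assumed to vary like the others.

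**Figure D4:**
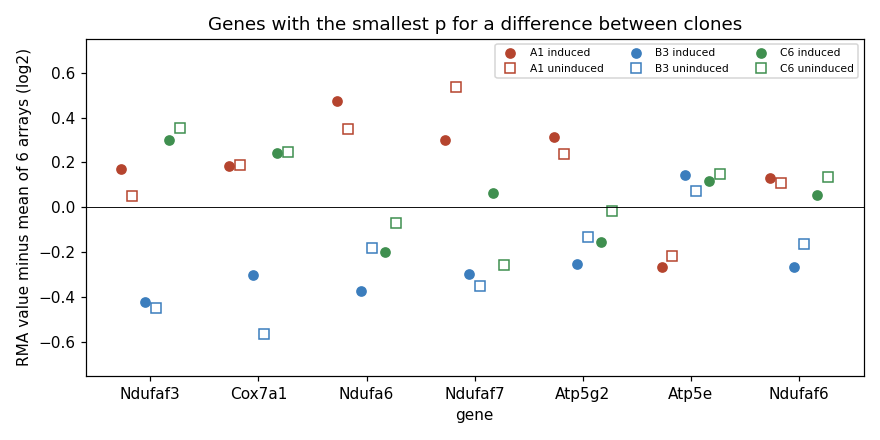
Values of the 7 genes with an unadjusted p under 0.05 for a difference among clones, each minus its mean over the 6 arrays (log2, vertical axis); filled circles are induced and open squares uninduced cells. B3 lies lowest for Ndufaf3 and Cox7a1, and A1 lies highest for Ndufa6, Ndufaf7 and Atp5g2 and lowest for Atp5e.

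Of the 90 genes, 42 had a further probe set with a mean of at least 6, and 28 of these 62 probe sets, in 23 genes, had a mean difference of the opposite sign to the brightest. Some genes were covered poorly by probe sets with a single symbol: Ndufb4 was represented by a probe set with a mean of 3.87, while 2 probe sets that also match its copies Ndufb4b and Ndufb4c had means of 11.1 and 11.3, and Cox7c by one with a mean of 6.25. A total of 10 probe sets that name such a gene beside another were left out.

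Genes that work with the respiratory chain were read from fixed lists, and 0 of them passed the test of induced against uninduced cells. Of the 13 subunits encoded in mitochondrial DNA only mt-Nd5, the gene of subunit ND5, was measured. It read 11.70, 11.19 and 10.71 in induced and 11.49, 12.02 and 11.14 in uninduced A1, B3 and C6, so that induced B3 and C6 lay below and induced A1 above their uninduced arrays, and the difference was −0.35 ± 0.29. Cytochrome c, cytochrome c1 and the enzymes that feed electrons to ubiquinone were split evenly, with 8 of 16 positive and a median of −0.00. Other assembly factors of the chain had 24 of 35 positive and a median of 0.01. Among them Cox11, a copper chaperone of complex IV, differed by 0.14 ± 0.13, with −0.22, 0.29 and 0.35 in A1, B3 and C6. Bcs1l, which inserts the iron-sulphur protein of complex III, differed by 0.12 ± 0.16, with −0.17, 0.26 and 0.29.

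The regulators of mitochondrial gene expression had 14 of 21 positive and a median of 0.03. Esrra, a nuclear receptor that acts on oxidative genes, read 7.43, 7.49 and 7.28 in induced and 7.16, 7.13 and 7.31 in uninduced A1, B3 and C6, a difference of 0.20 ± 0.10. It was higher in induced A1 and B3 and not in C6. Tfb2m, a transcription factor of mitochondrial DNA, differed by 0.17 ± 0.14, with −0.25, 0.35 and 0.41 in A1, B3 and C6. The tricarboxylic acid cycle had 6 of 18 positive and a median of −0.01, with Pcx at −0.22 ± 0.17 and Mdh2 at 0.15 ± 0.12. In A1, B3 and C6 the differences were 0.01, −0.09 and −0.57 for Pcx, mostly from C6. For Mdh2 they were −0.15, 0.25 and 0.36. The carriers and uncoupling proteins had 6 of 9 positive and a median of 0.03.

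In the test among clones 3 of the 100 genes of these lists passed (3.0%, beside 1.67% of all genes), and they were named after their values were seen. Yy1, the factor whose motif was searched above, read 10.70 and 10.53 in induced and uninduced B3 cells, against 11.52 and 11.65 in A1 and 11.37 and 11.47 in C6 (adjusted p = 0.0404 by limma). Nubpl, an iron-sulphur carrier for complex I, was also low in B3, with 8.08 and 7.99, against 9.16 and 9.30 in A1 and 8.92 and 8.86 in C6 (adjusted p = 0.0217 by limma). Sucla2, a subunit of succinyl-CoA ligase, was high in A1, with 11.52 and 11.59, against 10.45 and 10.38 in B3 and 10.52 and 10.49 in C6 (adjusted p = 0.0172 by limma).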

How the data were processed

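Total RNA of 6 ES cell samples was hybridised to Affymetrix mouse arrays. The authors summarised the scans to log2 values by RMA, and the deposited log2 values were not normalised again; the submitters' processing notes name RMA and affy without versions. Of 45101 probe sets 64 controls were left out. Probe sets were named from the platform annotation, where 34945 had 1 symbol, 932 several and 9160 none listed here, and all 90 genes were found in the RefSeq table of GRCm38.p6 by gene number. The members and the lists were chosen with earlier results of these data known, and no test was made over a list.

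Induced and uninduced arrays were compared by lmFit and eBayes of limma 3.58.1 under R 4.3.3 (two-sided tests, Benjamini-Hochberg over 45037 probe sets, threshold 0.05). With 3 arrays a group it replaced the t-test of the methods. The same tool tested the difference of A1 against those of B3 and C6, and the levels among clones by an F test with induction state. All 3 tests were checked on simulated data, in which the noise was independent among probe sets and arrays. The deviations shared by the arrays of a clone, given next, were not part of that noise, so the checks do not cover them. The arrays of a clone share their cells, so the replicate numbers pair the samples: across probe sets, induced and uninduced deviations from the group mean correlated in every clone (r of 0.19 in clone A1, of 0.53 in B3, of 0.31 in C6). The main fit had no block because the methods name none.

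Named genes were Ndufs1, in each class the 2 genes with the smallest p for induction and those with the largest positive and negative difference, genes past a threshold and isoform families, and up to 4 genes of each other list by the smallest p. Genes of the comparisons among clones that did not pass a threshold were named after their values were seen. The alternatives were a clone block, the methods' t-test, an intensity trend, array weights, repeated quantile normalization, a mean of at least 6, 1 probe set per gene, other choices of probe sets and leaving out arrays or clones. The number of arrays limits the precision. Promoter windows and gene positions came from RefSeq tables, and protein sequences were not used here.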

Additional observations from a re-analysis of the deposited data

Results flagged for a closer look

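The induced minus uninduced difference of clone A1 departed from those of clones B3 and C6 at 1219 of 45037 probe sets by the test of that difference (limma, adjusted p under 0.05), and the brightest probe set of 0 of the 90 oxidative phosphorylation genes was among them. One dimmer probe set of Ndufab1 was, with an A1 contrast of −1.44 ± 0.24 (SE, adjusted p = 0.0207 by limma) since induced cells differed from uninduced cells by −0.72 in A1 but by 0.44 in B3 and by 1.01 in C6. Esrrb, a marker of ES cells, passed the same test with an A1 contrast of 1.02 (adjusted p = 0.0347 by limma), its induced minus uninduced difference being 0.51 for A1 against −0.36 for B3 and −0.65 for C6.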

How the results depend on the processing

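No oxidative phosphorylation gene passed the test of induced against uninduced cells under any alternative run, including the one that took clone as a replicate block, which called 0 probe sets and changed no other call. Leaving out arrays or clones gave 0 to 981 probe sets, the highest count without clone A1 and with the block. The median difference of the 90 genes was 0.0202, and −0.000167 to 0.0422 when arrays or clones were left out, the lowest without the induced C6 array and the highest without clone A1. Of 624 values of the 33 named genes, 64 had another sign than the main value, none with an unadjusted p under 0.05 in either fit. For A1 against B3 and C6, 1219 probe sets became 2355 among those with a mean of at least 6, 458 with 1 probe set per gene and 2985 with the trend, and 0 genes of the set became 9 with the trend. Opposite signs in A1 held for 55 genes, of which 21 moved by at least 0.1 in every clone, an alternative chosen after seeing the data (24 genes moved that much). Among clones, 509 probe sets became 108 with a mean of at least 6 and 1026 without the induction state, and 11 to 3838 when an array was left out, few without a B3 array (11 and 13) and many without an A1 array (3364 and 3838). Genes of the set past that threshold were 1 with 1 probe set per gene and 2 without the induction state, and 0 to 3 when an array was left out. The causes were not tested. Signal limits the 4 genes with a mean below 6, whose values carry no firm order.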
